A study of Mus musculus with 2 samples.

Results

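Cycling cells of the mouse kidney were taken as cells that held at least 4 UMIs (unique molecular identifiers, each a counted RNA molecule) over Mki67, Top2a, Birc5, Cdk1, Ube2c and Ccnb2, with at least 3 of these 6 genes detected. These cells were thus chosen by their measured counts of the 6 genes. Of 11607 cells that passed the cell filter, 321 met the rule, 251 of 7236 in the Kif3aΔTub library and 70 of 4371 in the WT library. The Kif3aΔTub library came from the kidney of 5-week-old mice labelled KO and disease, with Kif3a deleted in the tubule, and the WT library from the kidney of 5-week-old wild type mice labelled control. Kif3a is a subunit of the motor that carries cargo into the primary cilium, and its loss from mouse renal tubules is known to give cystic kidneys. The driver of the deletion, its stage of onset and the number of animals in a library are not given in the sources used here, beyond 1 kidney having been taken per mouse. Cells were freed with a cold-active protease, passed over a dead cell removal kit and captured with 10x 3' v3 chemistry. With 1 library per genotype no difference has a replicate check, so no p-value is given, and every interval is a 95% interval that covers counting error only.

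A dividing cell copies its DNA in S phase and separates the copies in mitosis, and its transcripts follow that order. Replication genes such as Mcm2, Pcna and Rrm2 come first, and the genes of the mitotic spindle and of its checkpoints follow in G2 and mitosis. Mki67 encodes a coat protein of mitotic chromosomes, Top2a the topoisomerase that untangles sister chromatids, Birc5 (survivin) a member of the chromosomal passenger complex, Cdk1 the kinase that drives entry into mitosis, Ccnb2 a cyclin that activates it, and Ube2c an enzyme that helps to tag mitotic cyclins for destruction. Tubule cells of the healthy adult kidney divide rarely, and division after damage is a known part of tubular repair. A primary cilium is taken down before mitosis and rebuilt after it.

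All 6 genes had a RefSeq promoter on build GRCm38.p6, and 200 bases before the start of each were searched for elements common to late cell cycle genes. The CHR element, bound by the MuvB complexes that repress these genes in resting cells and activate them in G2, was searched as TTTGAA or TTCGAA on both strands, and the CCAAT box, bound by NF-Y, as CCAAT on both strands. Matches to both stood before 5 of the 6 genes, with at least 2 CCAAT boxes in each of the 5, against 1.07% of all 32851 promoters of the table with a CHR and at least 2 CCAAT boxes. CHR alone was in 13.4% and CCAAT alone in 29.3% of all promoters, and the window before Birc5 held neither spelling. No CHR match overlapped a CCAAT match. Other cell cycle genes were searched in the same way. Of G2 and mitosis, Ccnb1 and Plk1 held CCAAT matches but no CHR, and Cdc20 held 1 CHR and 2 CCAAT matches. Of S phase, Mcm2 held 1 of each, and Pcna and Rrm2 held 1 CCAAT match and no CHR. The pair thus did not separate late from early genes among these. The windows of 4 genes are shown because they make visible what the genes behind the cell choice share outside the counts. They run 5′ to 3′ on the gene's own strand, end at the base before the start, and carry CHR and CCAAT matches in capitals.
Mki67 chr7:135716380-135716579 (minus strand): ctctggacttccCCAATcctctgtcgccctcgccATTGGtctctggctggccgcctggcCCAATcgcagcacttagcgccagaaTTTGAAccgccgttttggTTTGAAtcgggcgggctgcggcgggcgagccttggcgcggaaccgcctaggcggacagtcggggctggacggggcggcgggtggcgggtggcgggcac
Top2a chr11:99024190-99024389 (minus strand): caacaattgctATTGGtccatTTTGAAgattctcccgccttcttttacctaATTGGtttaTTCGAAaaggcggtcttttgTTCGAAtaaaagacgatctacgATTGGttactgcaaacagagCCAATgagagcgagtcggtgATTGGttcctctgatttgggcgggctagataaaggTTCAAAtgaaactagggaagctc
Cdk1 chr10:69352913-69353112 (minus strand): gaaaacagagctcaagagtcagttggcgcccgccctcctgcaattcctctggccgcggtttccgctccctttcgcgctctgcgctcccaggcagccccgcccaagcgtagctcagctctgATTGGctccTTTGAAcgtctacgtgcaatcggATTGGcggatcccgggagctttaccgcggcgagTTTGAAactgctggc
Ccnb2 chr9:70421555-70421754 (minus strand): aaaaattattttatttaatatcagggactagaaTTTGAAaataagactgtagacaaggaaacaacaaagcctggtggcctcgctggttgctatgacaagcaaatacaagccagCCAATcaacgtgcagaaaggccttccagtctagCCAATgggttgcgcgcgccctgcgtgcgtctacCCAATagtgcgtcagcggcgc
Mki67 held 2 CHR and 3 CCAAT matches, Top2a 4 and 5, Cdk1 2 and 2, and Ccnb2 1 and 3. These are letter matches and not measured binding sites.

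The libraries differed in mitochondrial share, while the median depth of their other cells was close. Kept cells held 81800126 UMIs over 7236 Kif3aΔTub cells and 43262363 over 4371 WT cells. The filter on mitochondrial UMIs took out 706 Kif3aΔTub barcodes and 2564 WT barcodes. Cycling cells were deeper than other cells, with a median of 20118 UMIs against 7669 in other Kif3aΔTub cells, and 17266 against 7721 in other WT cells. Their mitochondrial share had a median of 5.63% in Kif3aΔTub and 26.1% in WT, and its part in any difference between the libraries was not tested. Of the 20 barcodes present in both libraries, 17 were kept cells and none was a cycling cell. Scrublet called 14 of the 251 Kif3aΔTub cycling cells and 1 of the 70 WT cycling cells as doublets.

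The cycling rule chose these cells, so their levels of the 6 genes are a description. The number of rule UMIs per cycling cell had a median of 17 in Kif3aΔTub, with a range of 4 to 179, and of 17.5 in WT, with a range of 4 to 199. Just inside the rule, 9 Kif3aΔTub and 3 WT cells held exactly 4 UMIs. Just outside, 12 Kif3aΔTub and 3 WT cells had 3 UMIs over 3 genes, and 30 and 8 had 4 or more UMIs over fewer than 3 genes. All 6 genes were found in 82 of the Kif3aΔTub and 15 of the WT cycling cells. Neutrophils and podocytes, which do not divide, served as background, and 0 of 69 neutrophils and 0 of 29 podocytes of Kif3aΔTub met the rule, which allows up to 4.35% and 10.3%. Their median depths were 999 and 3709 UMIs, below those of the cycling cells.

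Cycling cells were 3.47% (3.06 to 3.92) of the Kif3aΔTub library and 1.60% (1.25 to 2.02) of the WT library, a ratio of 2.17 (1.66 to 2.87). Deeper cells meet the rule more easily, so the 4795 Kif3aΔTub and 2846 WT cells with at least 5000 UMIs were also thinned to that number. Cells below that depth were left out. After thinning the shares were 2.75% (2.31 to 3.26) and 1.30% (0.917 to 1.79), a ratio of 2.12 (1.46 to 3.14). With thinning and a mitochondrial limit of 25% together, an alternative chosen after seeing the data, the ratio was 1.41 with an interval of 0.889 to 2.33 that holds 1.

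The libraries differed in which cells were cycling. Each cell was given the class whose markers it carried, and a cell below the threshold for every class stayed without one. Of the 251 Kif3aΔTub cycling cells, 63 (25.1%, 19.9 to 30.9) carried connecting tubule and principal cell markers such as Aqp2 and Hsd11b2, 58 (23.1%, 18.0 to 28.8) macrophage markers such as C1qa and Csf1r, 31 (12.4%, 8.55 to 17.1) proximal tubule markers such as Lrp2 and Slc34a1, and 62 (24.7%, 19.5 to 30.5) stayed below the threshold. Of the 70 WT cycling cells, 60 (85.7%, 75.3 to 92.9) carried proximal tubule markers, 4 thick ascending limb, 3 connecting tubule and principal, 2 distal convoluted tubule and 1 intercalated cell markers. Tubular classes together thus held 108 of 251 Kif3aΔTub cycling cells (43.0%, 36.8 to 49.4) and all 70 WT cycling cells. No WT cycling cell carried macrophage markers, which allows a share of up to 4.29%. The remaining Kif3aΔTub cycling cells were 8 thick ascending limb, 5 intercalated, 4 endothelial, 2 urothelial, 2 T and NK, 1 distal convoluted tubule, 1 fibroblast and 1 dendritic cell by their markers, and 13 with markers of more than 1 class, of which Scrublet called 5.

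The classes are cut from a score and are ranges, not types. Near the threshold lay 31 of the Kif3aΔTub and none of the WT cycling cells, and 14 and 1 were near the margin between the first and second class. The class of the 15 nearest non-cycling cells, found without cell cycle genes, was the same for 60 of 63 connecting tubule and principal, 54 of 58 macrophage, 30 of 31 proximal tubule and 46 of 62 unassigned Kif3aΔTub cycling cells, and for all 60 WT cycling cells with proximal tubule markers.

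**Figure D1:**
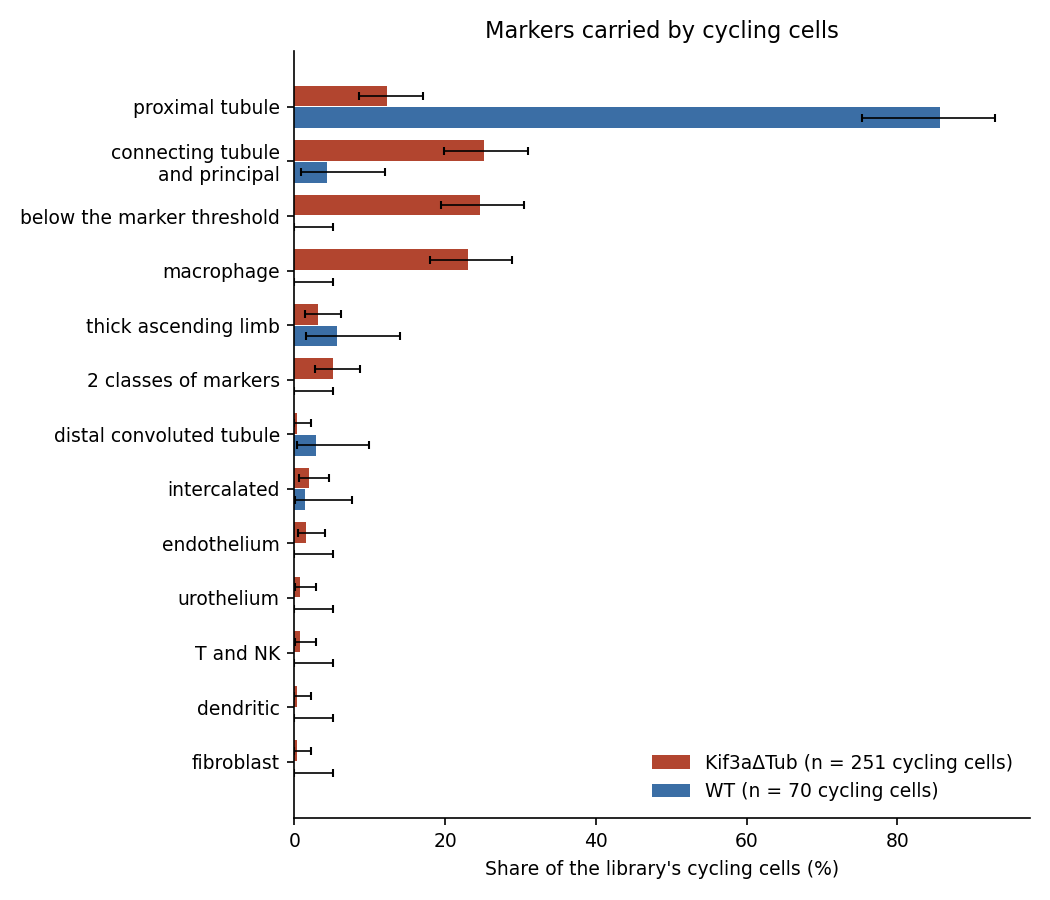
Share of each library's cycling cells by the markers they carry (horizontal axis, %), Kif3aΔTub above WT in each pair, bars with exact 95% binomial intervals. Proximal tubule markers were carried by 12.4% of Kif3aΔTub and 85.7% of WT cycling cells, while connecting tubule and principal markers, macrophage markers and no class each took 23.1% to 25.1% in Kif3aΔTub.

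The makeup of the other cells differed between the libraries as well. Among cells that were not cycling, proximal tubule markers were carried by 13.9% in Kif3aΔTub and 69.4% in WT, connecting tubule and principal markers by 25.2% and 3.84%, and macrophage markers by 9.16% and 0.0698%. A further 20.4% in Kif3aΔTub and 0.930% in WT stayed below the threshold for every class. Values within a class thus cover only cells that carried enough of its markers, and the libraries differ in how many cells this leaves out. The share of cells in cycle within a class was therefore taken separately. Among cells with proximal tubule markers it was 31 of 1003 (3.09%, 2.11 to 4.36) in Kif3aΔTub and 60 of 3044 (1.97%, 1.51 to 2.53) in WT, with median depths of 8025 and 8171 UMIs and intervals that overlap. After thinning it was 3.41% (2.17 to 5.07) and 1.54% (1.05 to 2.18), intervals that meet only at 2.17 and 2.18. With thinning and the mitochondrial limit of 25% together, chosen after seeing the data, it was 3.70% (2.17 to 5.86) and 2.41% (1.43 to 3.78), intervals that overlap. Intervals that overlap or meet do not show equal shares, and no interval was taken for the ratio within this class. Among cells with connecting tubule and principal markers it was 63 of 1820 (3.46%, 2.67 to 4.41) in Kif3aΔTub and 3 of 168 (1.79%, 0.370 to 5.13) in WT, where the Kif3aΔTub cells were deeper, at medians of 10618 and 6722.5 UMIs. After thinning the 2 values were 1.68% (1.09 to 2.47) and 1.63% (0.198 to 5.75), so no difference was detectable in that class at this depth.

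The highest cycling share of a class with at least 50 cells was that of macrophages. It was 58 of 698 (8.31%, 6.37 to 10.6) in Kif3aΔTub, and 44 of 308 (14.3%, 10.6 to 18.7) after thinning, which kept only cells of at least 5000 UMIs. Cycling macrophages had a median of 10140.5 UMIs and other macrophages 4343, so the 2 shares rest on different sets of cells. The rise is not read as a higher share of dividing macrophages. WT held 3 cells with macrophage markers, none of them cycling, so no WT share can be set beside these. Monocytes of Kif3aΔTub, which circulate and mature into macrophages, had 0 of 116 cells in cycle, which allows up to 2.59%, at a median depth of 4993 UMIs against 4602 in macrophages. The unassigned cells of Kif3aΔTub had 62 of 1488 in cycle (4.17%, 3.21 to 5.31; thinned 2.99%). Thick ascending limb markers gave 8 of 375 (2.13%, 0.925 to 4.16) in Kif3aΔTub and 4 of 342 (1.17%, 0.320 to 2.97) in WT, intercalated cell markers 5 of 531 (0.942%) and 1 of 288 (0.347%), and endothelial markers 4 of 464 (0.862%) and 0 of 143. In these 3 classes the intervals of the libraries overlapped. After thinning, thick ascending limb cells stood at 3 of 302 (0.993%, 0.205 to 2.88) in Kif3aΔTub and 3 of 248 (1.21%, 0.250 to 3.49) in WT. Intercalated cells stood at 1 of 460 (0.217%) and 1 of 245 (0.408%). The cycling counts were thus equal in both classes and too small to order the libraries.

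**Figure D2:**
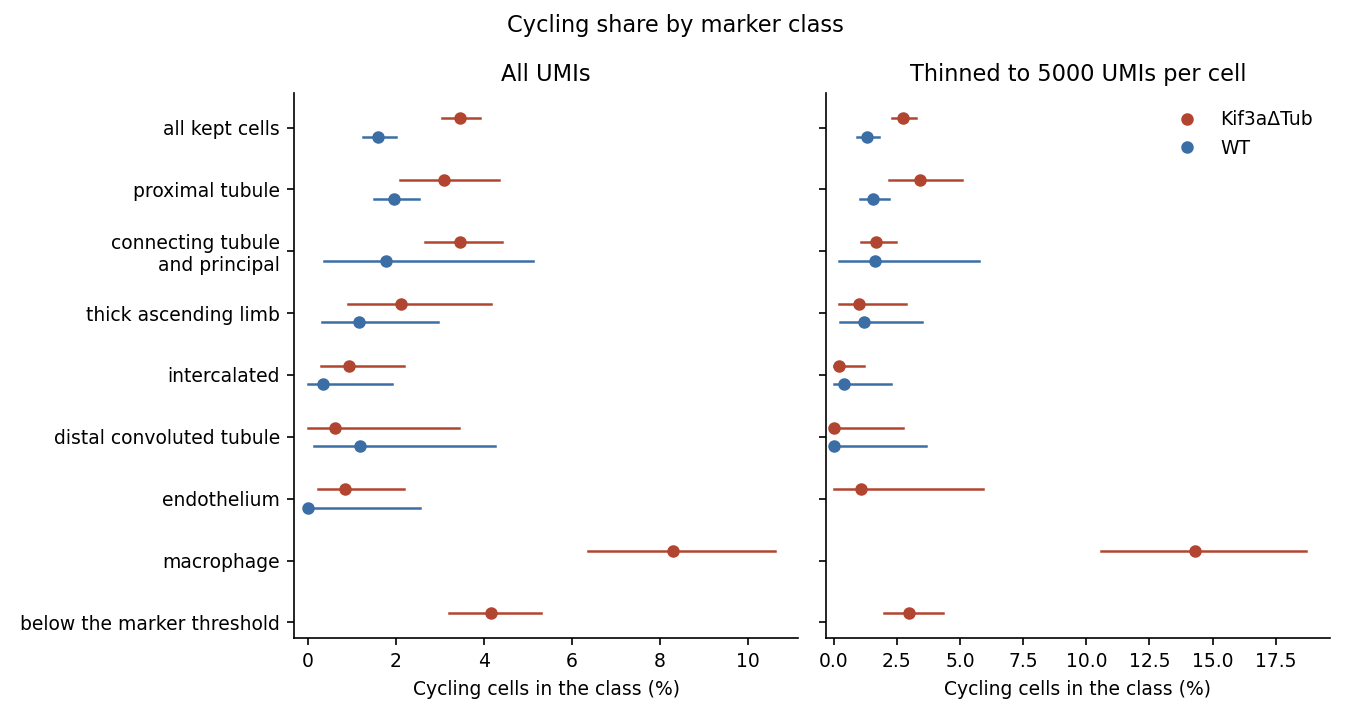
Cycling cells as a share of each marker class (horizontal axes, %), Kif3aΔTub above WT, with all cells and UMIs (left) and after thinning (right). Thinning took only cells of at least 5000 UMIs, each reduced to that number. Points are shares and lines exact 95% binomial intervals, and a class with fewer than 50 cells in a library is not drawn. Macrophages of Kif3aΔTub stand highest in both panels, at 8.31% and 14.3%, while the connecting tubule and principal pair meets at 1.68% and 1.63% after thinning.

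Where the cells stood in the cycle was described with genes outside the rule, 30 of S phase and 34 of G2 and mitosis, although genes of the same programme are tied to the rule. The measure was the UMIs of the G2 and mitosis genes as a share of both lists. In cells with proximal tubule markers that share was 75.6% (74.2 to 76.9) in the 31 Kif3aΔTub cells and 76.1% (75.1 to 77.1) in the 60 WT cells, with per-cell medians of 75.4% and 80.4%. Macrophages of Kif3aΔTub stood at 72.0%, unassigned cells at 60.3%, and connecting tubule and principal cells at 55.2% (54.2 to 56.1), the lowest of the 4. The per-cell medians were 80.6% in macrophages, 65.2% in unassigned and 47.5% in connecting tubule and principal cells, so macrophages stood below proximal tubule cells of Kif3aΔTub in the pooled share and above them in the median cell. Of these last 63 cells, 12 lay over 75% and 7 under 25%, against 16 and 1 of the 31 proximal tubule cells of the same library. Over all cycling cells the share was 62.8% in Kif3aΔTub and 77.2% in WT, over the different makeups given above. Free RNA from other cells and the unequal depths of the classes enter this share, and their part was not tested.

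**Figure D3:**
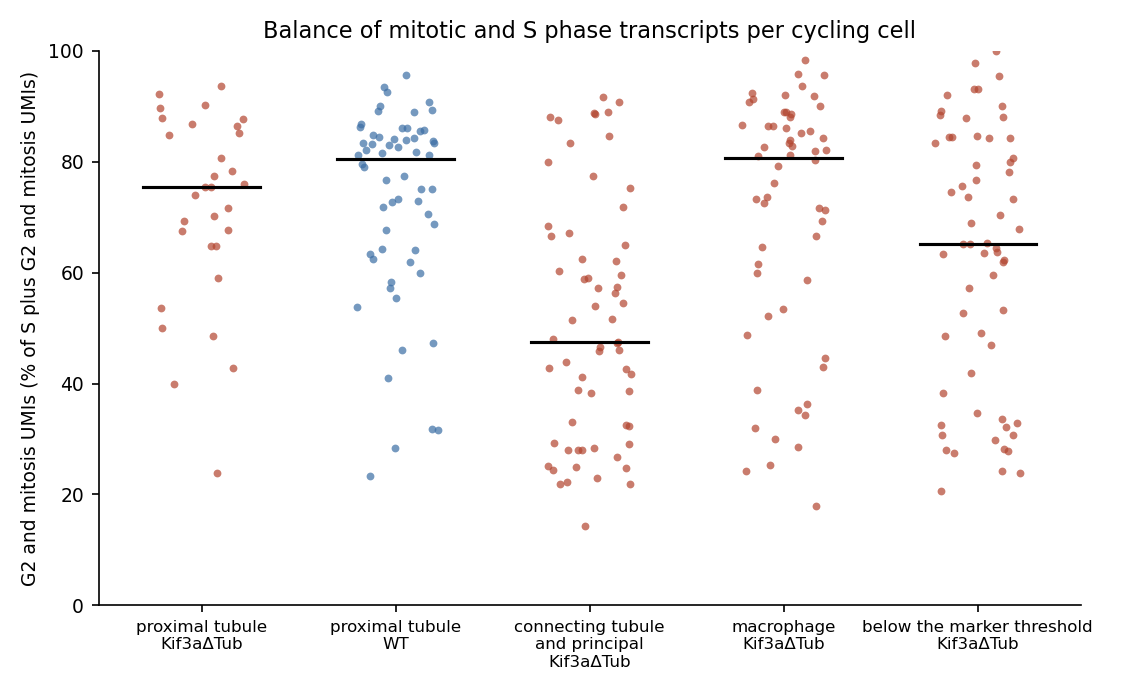
UMIs of 34 G2 and mitosis genes as a share of those plus 30 S phase genes (vertical axis, %) in each cycling cell; points are cells, black lines medians, red Kif3aΔTub and blue WT. The proximal tubule medians are 75.4% in Kif3aΔTub and 80.4% in WT, and connecting tubule and principal cells spread lower, around a median of 47.5%.

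Proximal tubule markers were the 1 class with enough cycling cells in both libraries to compare gene levels, from 31 Kif3aΔTub cells with 613346 UMIs and 60 WT cells with 1129230 UMIs. Levels are summed UMIs scaled to a total of 1e+06 (CPM), and a gene is counted as higher or lower at 2-fold or more with an interval that leaves out equality. Among 6964 genes with at least 20 UMIs over both sums, 6.26% were higher and 2.13% lower in Kif3aΔTub, and the median log2 ratio of all of them was 0.15. These were 436 higher and 148 lower genes, against 344 and 193 with median-of-ratios scaling and 294 and 220 with totals that leave out mitochondrial genes. These cells had a median of 18.6% mitochondrial UMIs in Kif3aΔTub and 26.1% in WT, and 3 of 9 measured dissociation stress genes were higher in Kif3aΔTub. None of the 6 rule genes reached the 2-fold limit. The cells were chosen on these genes, so their levels and ratios are a description and are not read as a difference between the libraries. Mki67 reached 499 CPM in Kif3aΔTub and 431 in WT (log2 ratio 0.21, with an interval that holds 0), Birc5 411 and 397, Cdk1 150 and 112, Ube2c 284 and 189 (log2 ratio 0.59, 0.29 to 0.88), and Ccnb2 158 and 219 (log2 ratio -0.46, -0.82 to -0.12). Top2a had the largest ratio of the 6, at 292 CPM in Kif3aΔTub and 159 in WT (log2 ratio 0.88, 0.57 to 1.19), with a UMI in 24 of 31 Kif3aΔTub cells and 22 of 60 WT cells.

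Of 28 measured S phase genes 4 were higher and none lower, with a median log2 ratio of 0.24, and of 33 measured G2 and mitosis genes 2 were higher and none lower, with a median of 0.32. The higher ones include the replication checkpoint gene Clspn, at 26.1 CPM in Kif3aΔTub and 9.74 in WT, and Prc1, which bundles microtubules of the central spindle, at 292 and 117 (log2 ratio 1.32, 0.99 to 1.66). Of 10 measured mitotic kinesins 1 was higher, Kif15, at 24.5 and 6.20 CPM. Of all 6964 measured genes 6.26% were higher, and these few members are not read as a shift of their lists. The summed level of the 2 lists turned with the mitochondrial limit, from log2 ratios of 0.24 for S phase and 0.20 for G2 and mitosis to -0.22 and -0.30 at a limit of 25%, so no direction is given for it. Among cell cycle inhibitors 2 of 8 were higher. Cdkn1a (p21), which halts the cycle after damage, had 47.3 CPM in Kif3aΔTub and 10.6 in WT (log2 ratio 2.12, 1.14 to 3.26), yet 1 cell held 48.3% of its 29 Kif3aΔTub UMIs, and its level was 0.32 times that of the whole Kif3aΔTub library. Kif3a itself had 16.3 CPM in Kif3aΔTub and 15.9 in WT (log2 ratio 0.06, -1.25 to 1.22). A 3' tag can lie outside the deleted part, which is not given, so this level checks neither the deletion nor the labels.

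The tubular injury list differed between the dividing proximal tubule cells of the libraries. Of 14 measured members of 27 listed, 11 were higher in Kif3aΔTub and none lower, with a median log2 ratio of 2.71. Setting genes at 0 in WT to their bound could not move this median, because these bounds lie above the middle members. The list was chosen with earlier results of these data known, and 13 members had too few UMIs. Of the 11, 8 stood below 0.5 times the level of their whole library. Of the 4 measured members at 0.5 times that level or more, a split made after seeing the data, 3 were higher, namely Spp1, Akap12 and Tnfrsf12a. Akap12 had 37.5 CPM in Kif3aΔTub, with a UMI in 5 of 31 cells, and 0 in WT. Lcn2, Anxa3 and S100a6 were also at 0 in WT. The Kif3aΔTub UMIs alone made these 4 genes measured, so they could not come out lower. Tmsb10 and Lgals3 were close to that, at 1.77 and 0.886 CPM in WT. The counts of higher members and the median rest in part on such genes. Spp1, which encodes osteopontin, a secreted matrix protein of stressed tubule, stood at 10668 CPM in Kif3aΔTub and 1494 in WT (log2 ratio 2.84, 2.76 to 2.91), and was found in 31 of 31 Kif3aΔTub and 53 of 60 WT cells. Its level was 0.634 times that of the whole Kif3aΔTub library. Tnfrsf12a, the receptor of TWEAK, was at 62.0 CPM in Kif3aΔTub and 22.1 in WT. S100a11, a calcium-binding protein, was at 386 and 77.0 CPM, which in Kif3aΔTub is 0.157 times the level of the library, with a UMI in 30 of 31 and 42 of 60 cells. The simple-epithelium keratins were nearer to level, Krt8 at 298 CPM in Kif3aΔTub and 386 in WT (log2 ratio -0.37, -0.63 to -0.12) and Krt18 at 47.3 and 23.9 (log2 ratio 0.98, 0.18 to 1.80).

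Lcn2 and S100a6 were far below their level over the whole library. Lcn2, an iron-binding defence protein, had 34.2 CPM in Kif3aΔTub and no UMI in WT, at least 12.9-fold higher against 3 UMIs over the WT group, but that was 0.00845 times its level over all Kif3aΔTub cells. S100a6 had 158 CPM in Kif3aΔTub, 0.0718 times the level of the library, with 72.2% of its UMIs in 1 cell. Both are among the 11 higher members, and neither value is read as expression in these cells. Of the secreted factors linked to wasting, 4 of 15 could be measured and 3 were higher, or 2 without Lcn2. Gdf15 was higher at 150 CPM in Kif3aΔTub and 31.9 in WT (log2 ratio 2.22, 1.66 to 2.83), with a UMI in 16 of 31 and 18 of 60 cells. The other 2 were Spp1 and Lcn2, both also on the injury list.

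The 10 highest genes by the naming rule included Spp1, Sparc and H2-Ab1. Sparc, a collagen-binding matrix protein, had 587 CPM in Kif3aΔTub and 11.5 in WT (log2 ratio 5.62, 4.88 to 6.60), with a UMI in 19 of 31 and 4 of 60 cells. H2-Ab1, a chain of MHC class II, had 186 and 7.97 CPM, with a UMI in 22 of 31 and 6 of 60 cells, and stood at 0.88 times the level of the whole Kif3aΔTub library, which holds many macrophages. Cyp4a14, a fatty acid hydroxylase, had 137 and 8.86 CPM. Hmox1 (haem oxygenase) and Ddit3 (the stress factor CHOP) rest on a single cell each, which held 93.2% of the 162 Hmox1 UMIs and 70.3% of the 64 Ddit3 UMIs of Kif3aΔTub. Gsta4, Sgk1, Gpc3 and Cyp4a10 completed the list with Spp1, at log2 ratios of 2.38 to 3.05.

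The lowest gene was Kap. Kap, a mouse kidney androgen-regulated gene of the proximal tubule, had 1 UMI over the 31 Kif3aΔTub cells (1.63 CPM) and 8282 CPM in WT, where 55 of 60 cells held it (log2 ratio -11.73, -17.61 to -9.83). A single WT cell held 33.0% of the WT UMIs, and the median WT cell stood at 139 CPM. Both libraries carried Y-linked Ddx3y, at 49.7 CPM in Kif3aΔTub and 53.7 in WT, and almost no Xist, with 2 and 1 UMIs. Dnase1, a secreted nuclease, had 22.8 and 350 CPM, with a UMI in 10 of 31 and 52 of 60 cells. The methyltransferase gene Inmt had 24.5 and 154 CPM, Cbs of cysteine synthesis 19.6 and 69.1, and the phosphate transporter gene Slc34a3 21.2 and 59.3.

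Proximal tubule cells outside the cycle were compared between the libraries in the same way. Among 12142 measured genes in those cells 11.6% were higher and 3.54% lower in Kif3aΔTub, and 24 of 26 measured injury genes were higher, with a median log2 ratio of 4.45. These members were not split by the level of their whole library, as was done for cycling cells, so free RNA from other cells can enter the count. Of 17 measured dissociation stress genes 11 were higher as well, with a median log2 ratio of 1.44. Spp1 stood at 14866 CPM in other Kif3aΔTub and 1029 CPM in other WT cells, Sparc at 652 and 10.4, and Kap at 1084 and 17152. Fewer injury genes were measurable in cycling cells, so the counts of the 2 comparisons cannot be set against each other. Over all tubular and urothelial classes, 110 Kif3aΔTub against 70 WT cycling cells, 24.1% of 10486 genes were higher and 8.45% lower, and 22 of 23 measured injury genes were higher, in sums that hold different classes in the 2 libraries. Of those 23 genes, 4 had no UMI in the cycling cells of 1 library and could be called in 1 direction only.

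**Figure D4:**
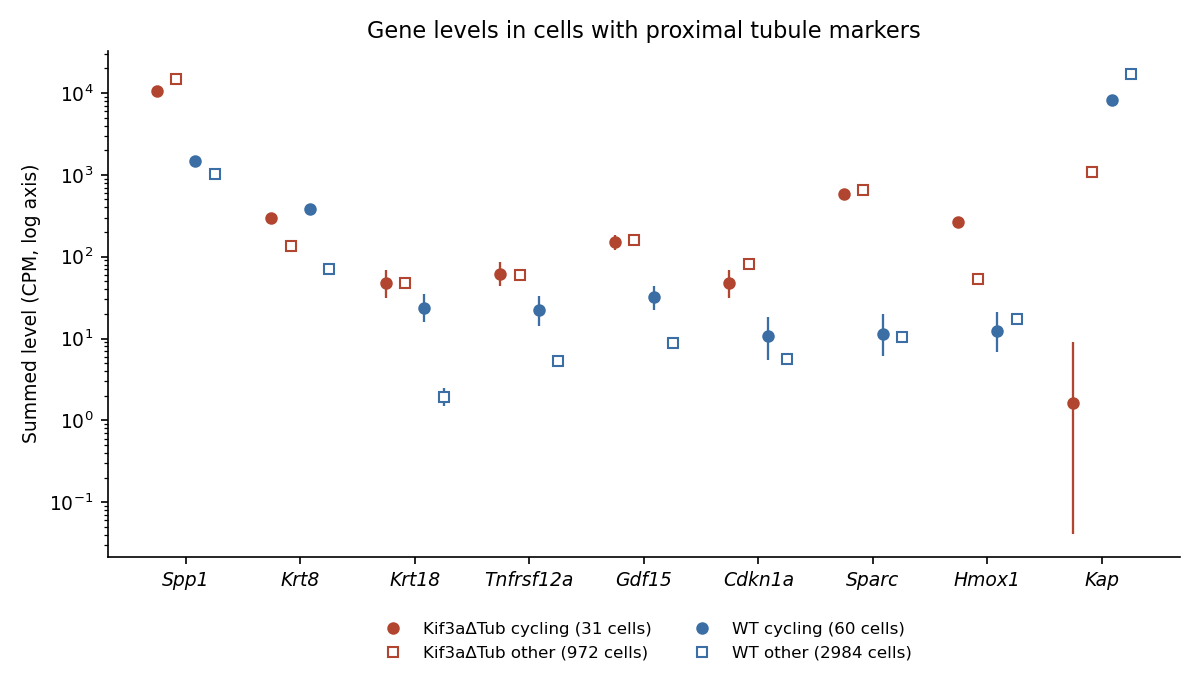
Summed levels (vertical axis, CPM, log scale) of 9 genes in cells with proximal tubule markers: Kif3aΔTub cycling, Kif3aΔTub other, WT cycling and WT other cells, from left to right; filled circles are cycling cells, open squares other cells, and lines exact 95% Poisson intervals. Spp1 and Sparc follow the library, Krt8 is higher in cycling than in other cells of both libraries, and the Hmox1 value of cycling Kif3aΔTub cells comes for 93.2% from 1 cell.

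Within each library, cycling proximal tubule cells were then set against the other cells with the same markers. Of 10831 measured genes of Kif3aΔTub, 5.67% were higher and 2.28% lower in cycling cells, and of 11563 of WT 7.23% and 2.69%. Cell cycle genes lead the higher side by the rule and are given as a description. All 31 measured G2 and mitosis genes were higher in cycling cells of Kif3aΔTub and all 32 of WT, as were 26 of 28 and 27 of 29 S phase genes. Pcna, the sliding clamp of DNA polymerase, had 71.7 CPM in cycling and 12.9 in other Kif3aΔTub cells, and 54.9 and 8.87 in WT. Foxm1, which switches on the mitotic genes, had 26.1 and 0.992 CPM in Kif3aΔTub and 28.3 and 1.01 in WT. Nek2 and Plk4, a centrosomal kinase and the kinase of centriole duplication, led the cilium list in both libraries. Nek2 had 45.7 and 0.992 CPM in cycling and other Kif3aΔTub cells, and 46.9 and 1.04 in WT.

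The injury list was then read in each library, and the difference between the libraries was not tested. Free RNA from other cells can enter these counts, and cycling cells were deeper, at medians of 20517 and 7969 UMIs in Kif3aΔTub. The part of either was not tested. In Kif3aΔTub 3 of 26 measured members were higher in cycling cells and 7 lower, with a median log2 ratio of -0.31 (-0.22 with bounds for genes at 0), against 0.08 for all genes. Lower were Vcam1, an adhesion molecule, at 6.52 CPM in cycling and 26.0 in other cells, from 4 UMIs in cycling cells, and Havcr1 (KIM-1), at 4.89 and 15.0, from 3 (log2 ratio -1.40, -3.91 to -0.04). Higher was Krt8, at 298 CPM in cycling and 136 in other cells (log2 ratio 1.14, 0.91 to 1.36). In WT 4 of 16 members were higher and none lower. These were Krt8 at 386 CPM in cycling and 71.1 in other cells (log2 ratio 2.44, 2.29 to 2.59), Krt18 at 23.9 and 1.95, Tnfrsf12a at 22.1 and 5.26, and Sox4 at 20.4 and 7.02. Krt18 was found in 17 of 60 cycling and 55 of 2984 other WT cells, whose median depths were 17894 and 8013 UMIs. Gdf15, a stress-induced cytokine, was likewise higher in cycling WT cells, at 31.9 CPM against 8.74 (log2 ratio 1.88, 1.32 to 2.37), while Kif3aΔTub cells held 150 CPM in cycling and 160 in other cells. Cdkn1a had 47.3 CPM in cycling and 80.4 in other Kif3aΔTub cells (log2 ratio -0.74, -1.35 to -0.23), and 10.6 and 5.69 in WT (log2 ratio 0.96, -0.08 to 1.74).

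Some markers of the class itself were lower in cycling cells, and these are given as a description because markers chose the cells. Pck1, the gluconeogenic enzyme and a class marker, had 316 CPM in cycling and 1218 in other Kif3aΔTub cells, and 470 and 1789 in WT, log2 ratios of -1.94 and -1.93. Slc5a2, the glucose transporter SGLT2 of the early segment, stayed near equality, at 380 and 438 CPM in Kif3aΔTub and 704 and 779 in WT. Slc22a30, a marker of the late segment, had 23.9 CPM in cycling and 143 in other WT cells (log2 ratio -2.55, -3.18 to -2.04), and Slc7a13, another, 12.4 and 58.9 CPM. In Kif3aΔTub both were near absent in cycling and other cells, Slc22a30 at 3.26 and 9.72 CPM (log2 ratio -1.26, -4.64 to 0.32, from 2 UMIs in cycling cells) and Slc7a13 at 0 and 0.893. The organic anion transporter gene Slco1a1 and the acyl-CoA synthetase gene Acsm3 were among the lowest in WT, at 8.86 and 77.2 CPM and at 10.6 and 97.3 CPM in cycling and other cells. In Kif3aΔTub the lowest were Kap, the complement gene C3, Snhg11, the fibrinogen genes Fgg and Fga, Nat8f1, Dnase1, Slc6a18, Trim7 and Cth. C3 had 22.8 CPM in cycling and 143 in other cells, with 78.6% of the cycling UMIs in 1 cell, and Fgg 50.5 and 227 CPM, found in 13 of 31 and 364 of 972 cells.

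Cells with connecting tubule and principal markers were 63 of the dividing cells of Kif3aΔTub, the largest named group with all UMIs, while after thinning 44 macrophages, 25 cells of this class and 23 proximal tubule cells met the rule. At 6 UMIs over 4 genes it was about level with macrophages, which took 25.5% of the cycling cells. Their contrast with 1757 other cells of the class was narrow. Of 12527 measured genes 4% were higher and 1.82% lower in the 63 cycling cells. All 30 S phase and 34 G2 and mitosis genes were higher, a description. The replication-dependent histone gene Hist1h1b had 195 CPM in cycling and 0.514 in other cells, and Pclaf, a partner of PCNA, 256 and 5.70. E2f8, a repressor that closes the E2F wave of S phase, had 28.0 and 0.277 CPM. Outside the cycle, S100a6 was the 1 injury gene of 23 that was higher, at 4915 CPM in cycling and 1714 in other cells (log2 ratio 1.52, 1.49 to 1.55), with per-cell medians of 3211 and 403 CPM, and no injury gene was lower. Lcn2 was high in both, at 7896 CPM in cycling and 5996 in other cells, and was found in 63 of 63 and 1667 of 1757 cells. Cdkn1a had 151 and 120 CPM (log2 ratio 0.33, 0.16 to 0.49), and none of the 12 inhibitors was lower.

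The lowest gene in the class was S100g, the calcium-binding protein calbindin-D9k of the connecting tubule. It had 40.1 CPM in cycling and 1039 in other cells (log2 ratio -4.69, -5.01 to -4.39), although 34 of 63 cycling and 643 of 1757 other cells held a UMI, and 1 cell held 50.6% of the cycling UMIs. Calb1, the other calbindin and a class marker, was at 77.1 and 260 CPM, and Kl (Klotho, the FGF23 co-receptor) at 32.5 and 75.8. Sgk1, an aldosterone-induced kinase, followed at 43.3 and 158 CPM. The water channel Aqp2, a class marker, had 3110 CPM in cycling and 5017 in other Kif3aΔTub cells, and 8648 in other WT cells. Of the dissociation stress genes 4 of 19 were lower in cycling cells and none higher, Klf6 with 67.2 and 137 CPM being the most abundant.

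The unassigned cycling cells of Kif3aΔTub mostly carried pan-epithelial markers. Of 62, 59 carried at least 2 of 5 such markers and 7 at least 2 of 7 pan-immune markers, and none carried neither. Of the 1426 other unassigned cells 975 carried at least 2 pan-epithelial markers, at a median depth of 6704.5 UMIs against 21868 in the cycling ones. Of the 44 cycling ones whose best score reached 0.02, below the threshold of 0.1, 31 leaned to connecting tubule and principal, 5 to distal convoluted tubule, 3 to proximal tubule, 2 to macrophage and 3 to other classes. The lean was shared by other unassigned cells of the library, of which 458 of 784 at that score led with connecting tubule and principal. The 55 cycling ones that were epithelial and not immune by these markers, a split made after seeing the data, had 1308 CPM of Epcam against 1479 in the 63 assigned cycling cells of the collecting system. Their Aqp2 was at 189 CPM against 3110, and Fxyd4, a sodium pump regulator, at 816 against 3947, both markers used for the classes. Vcam1 was at 51.9 CPM against 0 and the intermediate filament gene Vim at 230 against 5.41, with 43.6% of the Vim UMIs in 1 cell. Sox9, a factor of regenerating tubule, was at 40.2 against 2.71 CPM.

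Set against 949 other cells chosen the same way, 4.86% of 12292 genes were higher and 3.27% lower in the 55 cycling cells. Of 27 injury genes 4 were higher and none lower, namely S100a6 at 9670 CPM in cycling and 4736 in other cells, Vim at 230 and 73.9, Krt20 at 19.0 and 5.93, and Plaur, the urokinase receptor, at 61.4 and 27.2. Their summed level nevertheless had a log2 ratio of -0.14, and Spp1, the most abundant member, had 14158 CPM in cycling and 22621 in other cells. Gdf15 was at 479 and 231 CPM (log2 ratio 1.05, 0.92 to 1.17) and Cdkn1a at 170 and 296 (log2 ratio -0.79, -0.99 to -0.60). The p53 targets Sesn2, Bbc3 and Fas were the 3 of 12 that were lower, and none was higher. The lowest gene of the group was Klk1, a kallikrein of the connecting tubule, at 78.2 CPM in cycling and 769 in other cells (log2 ratio -3.29, -3.59 to -3.02).

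Cells with macrophage markers were 58 of the 251 dividing Kif3aΔTub cells. Their defining markers were present in cycling and other cells, with C1qa at 4024 and 6081 CPM, Csf1r at 494 and 827, and Mrc1, the mannose receptor, at 328 and 631. The monocyte genes Ly6c2 and Chil3 were at 0 in cycling macrophages, against 169 and 1333 CPM in monocytes. Of 9206 measured genes 9.99% were higher and 3.45% lower in the 58 cycling than in the 640 other macrophages. All 33 measured G2 and mitosis genes and 27 of 29 S phase genes were higher, as were the G1/S cyclins Ccne1, at 37.4 and 1.94 CPM, and Ccne2, at 35.9 and 1.94. Cdkn1a was level, at 157 and 156 CPM (log2 ratio 0.01, -0.31 to 0.31).

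The 10 lowest genes of cycling macrophages included Arg1, Igf1, Selenop and 3 chemokine genes. The chemokine genes Ccl8, Ccl7 and Ccl12 had 25.9, 79.0 and 171 CPM in cycling cells against 232, 373 and 653 in other macrophages, and Ccl2 had 164 against 369. Arginase 1 (Arg1) had 4.31 and 80.7 CPM, a difference of 3 against 249 UMIs (log2 ratio -4.01, -6.51 to -2.66). Igf1, a growth factor, had 18.7 and 82.0 CPM, Selenop, a selenium carrier, 216 and 861, and the inflammatory cytokine Il1b 7.19 and 49.6. The share of cells with a UMI moved less, at 16 of 58 cycling and 167 of 640 other cells for Ccl7, with median depths of 10140.5 and 4343 UMIs. Of 22 measured injury genes 12 were higher in cycling macrophages and 2 lower. The named ones among them, Clu, Krt18 and Krt7, stood at 0.16 to 0.18 times their level over the whole library, with 29.8% of the Clu UMIs in 1 cell, and Aqp2 moved with them at 151 CPM in cycling and 55.7 in other macrophages, so they are not read as macrophage expression. The other higher members were not set against the library level and are not read as such either. Scrublet called 5 of the 58 cycling and 11 of the 640 other macrophages as doublets. Without doublet calls 802 genes of all kinds were higher in cycling macrophages, against 920 with them.

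**Figure D5:**
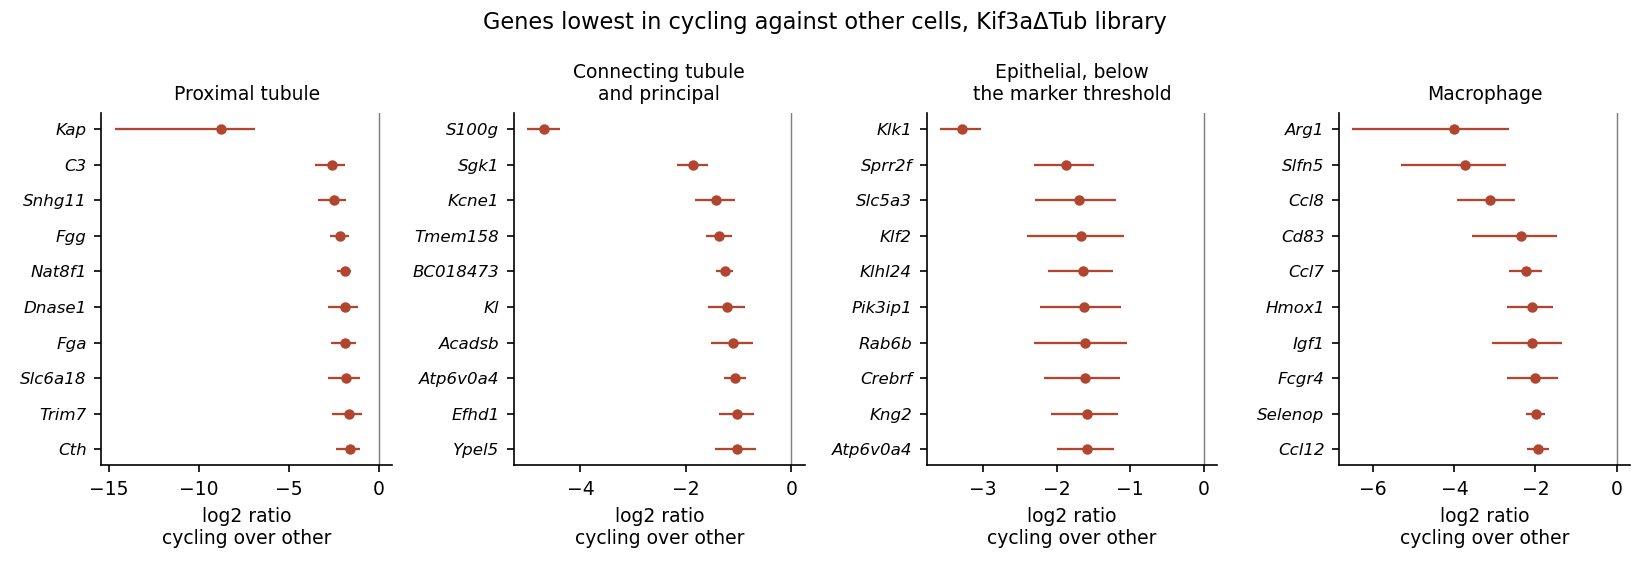
Log2 ratio of summed levels, cycling over other cells of the same class (horizontal axes), for the 10 lowest genes by the naming rule in 4 groups of Kif3aΔTub cells; points are ratios and lines 95% intervals covering counting error only. Kap, S100g, Klk1 and Arg1 are the lowest of each group, at -8.79, -4.69, -3.29 and -4.01.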

How the data were processed

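The authors deposited 1 filtered 10x matrix per library, with genes, barcodes and UMI counts that are not normalized. Per the submitters' processing notes these came from Cell Ranger 3.0.2 and Seurat 3.1.1 on mm10, while the file headers give Cell Ranger 3.1.0. Features and barcodes were used as deposited. Cells with at least 500 UMIs, 200 genes and under 50% mitochondrial UMIs were kept. Marker scores were CPM over the median of the top 50 cells. A class needed 3 markers, a score of 0.1 and 2 times the next class, a scoring rule chosen after the data were seen. Doublets were called with Scrublet in scanpy 1.11.5 and kept. Nearest cells used 2000 variable genes and 30 components. Ratios are log2 with 0.5 UMIs added and exact conditional intervals, tested on simulated Poisson sums that hold no spread between cells. Sums and shares have exact Poisson and Clopper-Pearson intervals. The limit given for a share of 0 is 3 cells over the cells of the group. The cycling rule, gene lists and members were chosen with earlier results of these data known. Named genes were the 10 highest and 10 lowest whose higher side reached 50 CPM, 20 UMIs and 0.5 times its library's level, up to 4 members of each of 13 lists, the rule genes, Kif3a, Cdkn1a, Pcna and Lcn2. Other genes given beside these (class markers, injury genes such as Sox4, S100a11 and Akap12, and Selenop, Spp1 or Vcam1 outside the class that named them) were chosen after their values were seen. Promoters came from RefSeq. Alternatives were 2 other cycling rules, thinning, a mitochondrial limit of 25%, 1000 UMIs, doublet removal, neighbour classes, other scalings, filters and added counts.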

Additional observations from a re-analysis of the deposited data

Results flagged for a closer look

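The summed level of the tubular injury list differed in sign between the libraries when cycling were set against other proximal tubule cells. It had a log2 ratio, cycling over other, of -0.44 (-0.48 to -0.41) in Kif3aΔTub and 0.75 (0.69 to 0.81) in WT. The list of secreted factors linked to wasting did the same, at -0.48 in Kif3aΔTub and 0.56 in WT. Spp1 is on both lists and is most of either sum, at -0.48 in Kif3aΔTub and 0.54 in WT, so these are largely 1 observation on Spp1. Gene by gene, 3 of 26 measured injury members were higher and 7 lower in cycling cells of Kif3aΔTub, and 4 of 16 were higher and 0 lower in WT, with Krt8 higher in both, at 1.14 and 2.44. The difference between the libraries was not tested, and neither was the part of free RNA from other cells.

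Among WT barcodes removed by the cell filter, 9 of 2567 met the cycling rule (0.351%, 0.160 to 0.665), given here because these barcodes enter no comparison; 1.60% of the kept WT cells did. In Kif3aΔTub 1 of 714 removed barcodes did.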

How the results depend on the processing

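No paired analysis was possible because each genotype has 1 library. Over the alternatives, the ratio of cycling shares lay between 1.41 and 2.39, and the only interval holding 1 was that of thinning with a mitochondrial limit of 25%. At 3 UMIs over 2 genes, Kif3aΔTub shares were 4.48% in all, 5.05% in connecting tubule and principal and 5.65% in unassigned cells, and WT shares 2.10% in all and 2.60% in proximal tubule. At 6 UMIs over 4 genes they were 2.54%, 2.53% and 2.55% in Kif3aΔTub, and 1.08% and 1.31% in WT. Thinning gave 2.75% in all, 1.68% in connecting tubule and principal, 14.3% in macrophage and 2.99% in unassigned Kif3aΔTub cells. Thinning with the 25% limit, chosen after seeing the data, gave 2.83%, 1.70%, 14.6% and 2.99% for these, and a ratio of 1.41.

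Between cycling proximal tubule cells of the libraries, the G2 and mitosis sum had a log2 ratio of 0.11 with median-of-ratios scaling, 0.051 without mitochondrial genes, 0.34 as a mean over cells and -0.30 at the 25% limit, and the S phase sum 0.094, 0.50 and -0.22 under the last 3. The cause was not tested. Genes counted as higher were 436, and 662 with no filter on sums (at least 1 UMI), 172 at 50 UMIs and 288 at the 25% limit. Genes counted as lower were 148, and 77 at 50 UMIs. Of the 11 higher injury genes, 3 stood at 0.5 times the level of their library or more, a recount chosen after seeing the data. Among these 3, Akap12 had 0 CPM in WT and could not come out lower. Genes lower in cycling than in other WT proximal tubule cells were 541 at the 25% limit, against 311. The other 127 values stayed within their interval or within 1.5 times the count. Of the recomputed ratios of named genes 1504 stayed within their interval, 35 left it, and none that excluded equality changed sign. Classes other than proximal tubule had too few WT cycling cells for a comparison, and counts of 1 to 4 UMIs limit Vcam1, Havcr1, Kap and Arg1.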
